A study of Mus musculus with 111 samples.

Results

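Gene expression in the lungs of mice 2 days after bleomycin was compared with that of mice given saline and killed on the same day. The comparison used all arrays whose titles name this day, 8 of bleomycin mice and 8 of saline mice, with 1 mouse on each array. These 16 arrays belong to a time course with 95 more arrays of other days. All mice were males of the strain C57BL6/J, bought at an age of 7 to 9 weeks. Bleomycin mice received 2 U/kg of the drug in 50 µl of saline as 1 spray into the trachea, and saline mice received the same volume without drug. The other days were day 1, day 7 and then every 7 days until day 35, each with bleomycin and saline mice of its own. RNA was isolated from a homogenate of both lungs, so every value is an average over all cells of the organ. Fewer cells of a type and less RNA per cell cannot be told apart in such samples. The labelled tissue was checked against defining lung genes. Their levels lay near the highest value of the series, 14.69, so differences in them may be understated. The surfactant protein gene Sftpc had log2 levels of 14.31, 14.40 and 14.48 in bleomycin mice, against 14.39, 14.45 and 14.48 in saline mice (lowest, median and highest mouse), and the club cell secretoglobin gene Scgb1a1 had 14.48, 14.53 and 14.61 in bleomycin mice, against 14.50, 14.54 and 14.60 in saline mice.

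Bleomycin is an antibiotic that binds metal ions and breaks DNA strands, and the lung is sensitive to it because it contains little of the enzyme that inactivates the drug. Broken DNA activates the transcription factor p53, which induces genes that halt the cell cycle. Injured epithelium and macrophages release chemokines, proteins that draw leukocytes out of the blood. Neutrophils follow CXC chemokines through the receptor Cxcr2, monocytes follow CC chemokines through Ccr2, and activated T and NK cells follow Cxcl9, Cxcl10 and Cxcl11 through Cxcr3. Interferons, which cells make on sensing foreign or misplaced nucleic acid, switch on a large set of antiviral genes through STAT proteins. NF-kappaB, a transcription factor held inactive by IkappaB proteins, drives many of the early chemokine genes.

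Values were on a log2 scale as normalized by the authors, so a difference of 1 is a 2-fold change. Differences are given as bleomycin minus saline with the standard error (SE) of limma, a linear model fitted to all genes and all arrays of the time course. Spread was pooled over all groups for each gene, so the SE only partly reflects a divided day 2 bleomycin group. The p-values carry a Benjamini-Hochberg adjustment over the 15707 genes measured. The words rose and fell are kept for changes that passed an adjusted p of 0.05, and a gene is called differentially expressed where the change was also over 2-fold. Each gene had 8 values per group. A probeset measures its gene against itself across arrays, so levels were not compared between genes.

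Bleomycin mice 5 and 8 stood apart from the other 6. Over all genes, the median correlation of mouse 5 was 0.98424 with the other bleomycin mice and 0.99077 with the saline mice, and that of mouse 8 was 0.98477 and 0.99046. Each of the other 6 bleomycin mice correlated better with its own group than with saline mice. For the 149 genes that were over 2-fold higher in the group, the median difference from the saline mean was 0.12 in mouse 5 and 0.20 in mouse 8, against 1.31 to 2.25 in the other 6 bleomycin mice. For the 27 genes that were over 2-fold lower, mice 5 and 8 lay below every saline mouse in 24 and 21 genes, and the other 6 mice did so in 15 to 27 genes. In mice 5 and 8 the increases of the 149 genes were thus smaller than in the rest of their group, and most decreases of the 27 genes were present. Both sets were called with mice 5 and 8 included, which favours genes that changed in these mice too. Without them 51 genes were over 2-fold lower, 20 of the 27 among them. Why mice 5 and 8 differed from the other 6 was not tested. The main values below include both mice, and values without them were added after this was seen. Among the saline mice, mouse 7 had the highest summary of T cell markers and mouse 8 had the highest levels of Cxcl2 and Cxcl3, which is given beside the results it touches.

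At day 2, 149 genes were differentially expressed upward and 27 downward, which is 0.949% and 0.172% of the 15707 genes. At any fold 2233 genes rose (14.2%) and 2059 fell (13.1%), and the median change over all genes was -0.01. Counts of list members that rose or fell at day 2 are to be read against these shares. In 221 genes (1.41%) every bleomycin mouse lay above every saline mouse, and in 298 genes (1.9%) every bleomycin mouse lay below. Of the 149 genes 35 were of the first kind, and of the 27 genes 11 were of the second. Without mice 5 and 8 the counts were 242 upward and 51 downward, among them 148 of the 149 and 20 of the 27. The median size of the change was 1.34 in the 149 genes and 1.26 in the 27, and 24 genes were over 4-fold higher and 3 over 4-fold lower. The 15 largest increases included chemokine, acute-phase and interferon-stimulated genes, which are described first.

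**Figure D1:**
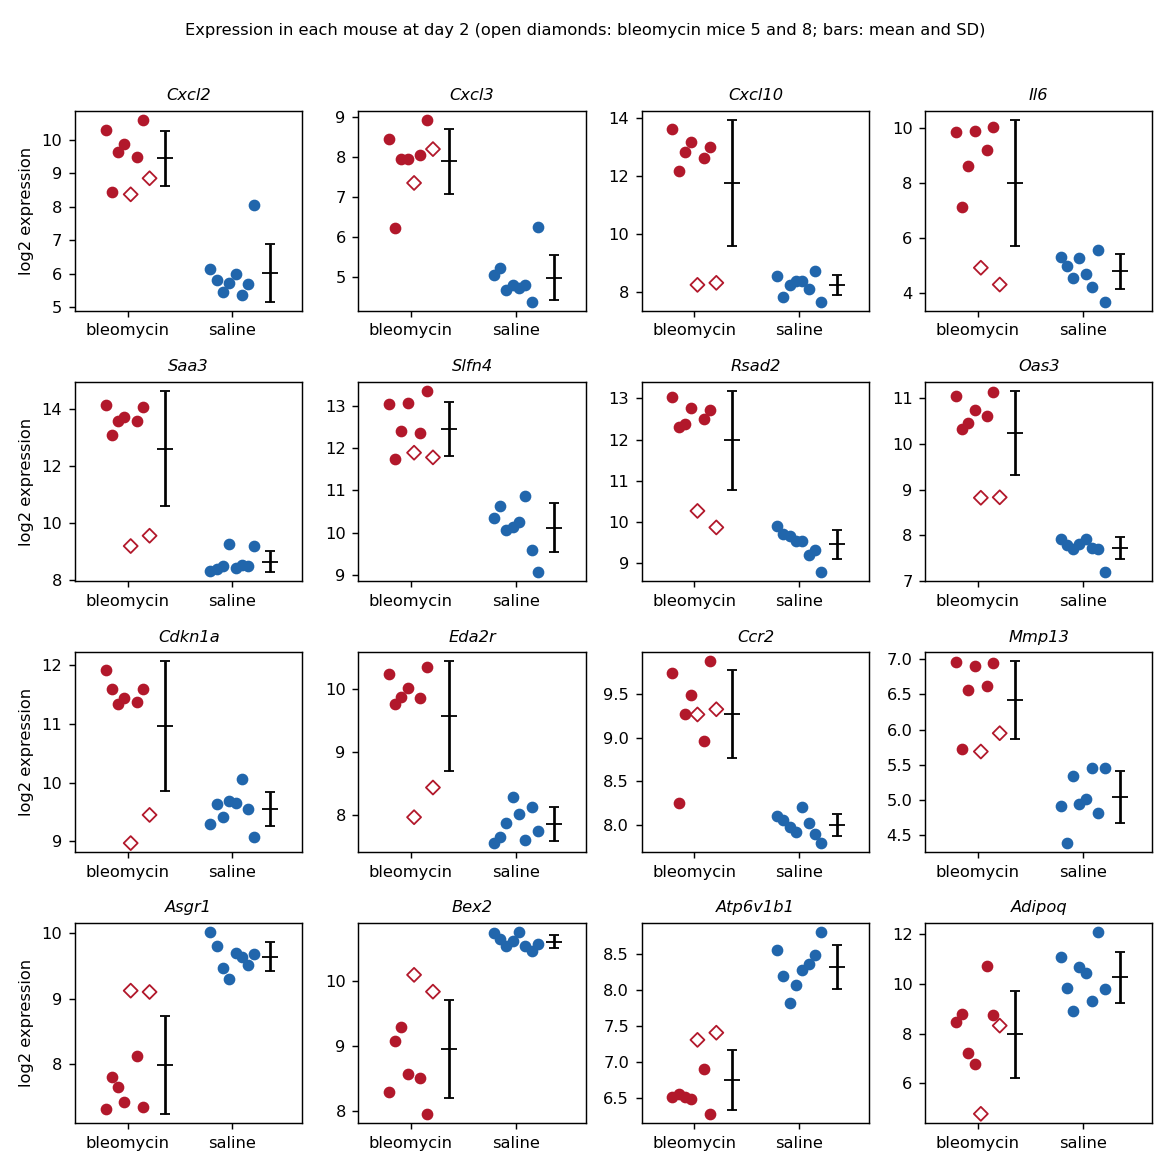
Log2 expression of 16 genes in each mouse at day 2, bleomycin mice left and saline mice right in each panel, with open diamonds for bleomycin mice 5 and 8 and bars for the mean and SD of 8 mice. Mice 5 and 8 lie among or below the saline mice for Cxcl10, Il6 and Cdkn1a but above every saline mouse for Cxcl2, Slfn4, Oas3, Ccr2 and Mmp13.

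Of the neutrophil chemokines and their receptors, 8 genes were measured and 4 rose, against 14.2% of all genes, and none fell, with a median change of 1.40. The 4 were Cxcl1, Cxcl2, Cxcl3 and Cxcl5, whose products bind Cxcr2. Cxcl2 was 10.6-fold higher, with log2 levels of 8.37, 9.56 and 10.59 in bleomycin mice, against 5.35, 5.77 and 8.06 in saline mice, a difference of 3.41 ± 0.44 (adjusted p = 1.69e-09). Every bleomycin mouse exceeded every saline mouse, although saline mouse 8 stood at 8.06 and the next saline mouse at 6.13. Cxcl3 had levels of 6.22, 8.01 and 8.93 in bleomycin mice, against 4.37, 4.78 and 6.24 in saline mice, a difference of 2.91 ± 0.36 (adjusted p = 2.13e-10). The lowest bleomycin mouse for this gene, mouse 2, fell just short of saline mouse 8, and the groups did not otherwise overlap. Cxcl1 was higher by 3.06 ± 0.44 (adjusted p = 4.03e-08), with 6.98, 10.02 and 10.93 in bleomycin mice, against 5.39, 6.22 and 7.15 in saline mice. Cxcl5, which lung epithelium makes, was higher by 1.94 ± 0.34 (adjusted p = 3.6e-06). Mice 5 and 8 had raised Cxcl2 and Cxcl3, the second at 7.35 and 8.20, but their Cxcl1, at 6.98 and 7.06, was below the highest saline mouse. Each of the 8 bleomycin mice had a mean over the whole list that exceeded the highest saline mouse. The receptor Cxcr2 had 8.20, 9.31 and 11.31 in bleomycin mice, against 7.79, 8.56 and 9.21 in saline mice, a difference of 0.86 ± 0.41 that did not pass (adjusted p = 0.108). Ppbp, a platelet chemokine that also binds Cxcr2, differed by 0.02 ± 0.20 (adjusted p = 0.953).

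The genes Cxcl1, Cxcl2 and Cxcl3 lie close together on chromosome 5, and the 130 bases before their annotated starts are shown because each contains a match to the kappaB site to which NF-kappaB binds. The sequences are those of RefSeq on GRCm38.p6, written 5′ to 3′ on the strand of the gene, and capitals mark the match. The motif searched was GGGA, any base and then TTTCC, on either strand.
Cxcl1 (chr5:90891115-90891244, forward strand): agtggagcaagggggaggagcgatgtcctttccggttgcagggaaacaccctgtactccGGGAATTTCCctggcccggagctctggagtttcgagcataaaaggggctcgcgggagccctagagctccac
Cxcl2 (chr5:90903769-90903898, forward strand): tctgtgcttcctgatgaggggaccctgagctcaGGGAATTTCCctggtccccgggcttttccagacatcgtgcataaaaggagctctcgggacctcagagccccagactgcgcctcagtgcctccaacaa
Cxcl3 (chr5:90785971-90786100, forward strand): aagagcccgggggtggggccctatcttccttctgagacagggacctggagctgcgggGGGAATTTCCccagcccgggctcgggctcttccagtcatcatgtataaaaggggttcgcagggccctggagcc
The matches began 71, 97 and 73 bases before the starts of Cxcl1, Cxcl2 and Cxcl3. In the 250 bases before the start, the motif was found for 0.414% of the 27025 genes of the RefSeq table and for 0.511% of the 12513 measured genes in that table. It was found for 4 of the 113 upward genes that the table holds, which are these 3 and Il6, and for none of the 22 downward genes that it holds. A match describes the letters only, and binding was not measured.

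The 3 ligands of Cxcr3, which interferon-gamma is known to induce, rose, and the receptor gene Cxcr3 differed by 0.27, which did not pass. Cxcl10 was 11.4-fold higher in the group, with 8.23, 12.72 and 13.62 in bleomycin mice, against 7.65, 8.31 and 8.71 in saline mice, a difference of 3.51 ± 0.41 (adjusted p = 4.55e-11). The group mean joins unlike mice here, since mice 5 and 8 had 8.23 and 8.30, within the saline range, and the other 6 mice lay above 12. Without those 2 mice the difference was 4.67. Cxcl9 was higher by 2.51 ± 0.48 (adjusted p = 1.69e-05) and Cxcl11 by 2.01 ± 0.23 (adjusted p = 3.12e-11), again with 6 of 8 bleomycin mice above every saline mouse for each. The mean of this list, as a difference from the saline mean, was -0.07 and -0.02 in bleomycin mice 5 and 8, against 0.84 in saline mouse 7, the highest of its group.

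Among 9 measured CC chemokines of monocytes and macrophages and their receptors 8 rose and none fell, with a median of 1.21. Ccl12, a mouse ligand of Ccr2, was higher by 2.60 ± 0.38 (adjusted p = 6.03e-08), with 7.58, 10.72 and 11.82 in bleomycin mice, against 5.78, 7.95 and 8.22 in saline mice. Ccr2, the receptor by which monocytes leave the bone marrow, had 8.25, 9.30 and 9.88 in bleomycin mice, against 7.79, 8.00 and 8.20 in saline mice, a difference of 1.28 ± 0.18 (adjusted p = 9.15e-09). All 8 bleomycin mice were above all saline mice for Ccr2, mice 5 and 8 included. Ccr1 (1.30 ± 0.27, adjusted p = 6.35e-05) and its ligand Ccl9 (1.21 ± 0.18, adjusted p = 1.25e-07) showed the same separation of the groups. Ccl8 was higher by 1.37 ± 0.29 (adjusted p = 0.00011) in the group, with mouse 5 at 7.76, below every saline mouse, and by 1.99 without mice 5 and 8. Ccl3 and Ccl4, which macrophages and NK cells release, were higher by 0.99 ± 0.25 (adjusted p = 0.0013) and 0.75 ± 0.16 (adjusted p = 0.000146). Of 12 chemokines of lymphocytes and eosinophils 9 rose and none fell (1 fell without mice 5 and 8), with a median of 0.70. Ccl20, a ligand of Ccr6, rose by 1.48 ± 0.28 (adjusted p = 2.39e-05), the eosinophil chemokine Ccl11 by 1.11 ± 0.20 (adjusted p = 5.62e-06) and the Ccr4 ligands Ccl17 and Ccl22 by 1.07 ± 0.22 (adjusted p = 8.48e-05) and 1.01 ± 0.21 (adjusted p = 7.5e-05). The B cell chemokine Cxcl13 rose by 1.55 ± 0.33 (adjusted p = 0.000123), but the groups overlapped. Bleomycin mice 5 and 8 had 9.44 and 9.91, against 12.28 in saline mouse 7 and a saline median of 9.59.

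The interleukin-6 family had 8 of 12 measured genes higher and 2 lower. Il6 was higher by 3.20 ± 0.60 (adjusted p = 1.53e-05), with 4.31, 8.90 and 10.04 in bleomycin mice, against 3.69, 4.85 and 5.58 in saline mice. Mice 5 and 8 had 4.92 and 4.31, inside the saline range, and the difference was 4.33 without them. Lif, which signals through the same receptor subunit, rose by 1.55 ± 0.28 (adjusted p = 5.75e-06), Il11 by 0.93 ± 0.22 (adjusted p = 0.00055) and Osm by 0.82 ± 0.23 (adjusted p = 0.00349). Socs3, the feedback inhibitor that STAT3 induces, rose by 1.09 ± 0.23 (adjusted p = 8.13e-05). The 2 members that fell, Clcf1 and Ctf1, changed by -0.36 and -0.19, and neither call held without 1 mouse (Clcf1 adjusted p = 0.0835 without bleomycin mouse 2, and likewise without bleomycin mouse 3 and saline mice 1 and 8, and Ctf1 adjusted p = 0.0781 without bleomycin mouse 1). Acute-phase proteins, which interleukin-6 induces in liver and epithelium, rose in 7 of 12 measured genes and fell in none. Saa3, a serum amyloid A that macrophages and epithelium make, had the largest change of all genes, 3.95 ± 0.51 (adjusted p = 1.59e-09), with 9.20, 13.57 and 14.12 in bleomycin mice, against 8.33, 8.50 and 9.28 in saline mice. In 6 bleomycin mice its level was above 13, and mice 5 and 8 had 9.20 and 9.56. The orosomucoid gene Orm2 rose by 2.32 ± 0.39 (adjusted p = 1.57e-06), Serpina3n, a serine protease inhibitor, by 1.39 ± 0.17 (adjusted p = 1.39e-10) and Lcn2, which withholds iron from bacteria, by 0.80 ± 0.14 (adjusted p = 2.17e-06).

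In the interleukin-1 family 10 of 13 genes rose and none fell. Il1b was higher by 1.35 ± 0.37 (adjusted p = 0.00319), with 9.98, 11.41 and 12.62 in bleomycin mice, against 8.99, 10.06 and 10.84 in saline mice, and 7 of 8 bleomycin mice exceeded every saline mouse. The 2 natural blockers of interleukin-1 rose with it. The receptor antagonist gene Il1rn was higher by 1.55 ± 0.30 (adjusted p = 2.12e-05) and the decoy receptor gene Il1r2 by 1.46 ± 0.33 (adjusted p = 0.00028), both with no overlap of the groups. Il18bp, which neutralizes interleukin-18, rose by 1.16 ± 0.14 (adjusted p = 2.13e-10). Il1a, whose protein dying cells release, differed by 0.25 ± 0.11 and did not pass (adjusted p = 0.082), or by 0.30 with an adjusted p of 0.0139 under array weights. Of 16 genes of the TNF superfamily and its induced proteins 9 rose and none fell, with Tnf itself higher by 0.47 ± 0.13 (adjusted p = 0.00322) and Tnfrsf9 by 0.92 ± 0.21 (adjusted p = 0.000428). All 16 measured NF-kappaB feedback and target genes rose (15 after quantile normalization was repeated), with a median of 0.45. The largest changes in this list were in Selp and Sele, the selectins on which leukocytes roll along the vessel wall, at 1.56 ± 0.28 (adjusted p = 7.72e-06) and 0.99 ± 0.21 (adjusted p = 0.000157), and in Ptx3, a soluble pattern receptor, at 1.31 ± 0.29 (adjusted p = 0.000235). The feedback inhibitors moved less, with Bcl3 at 0.79 ± 0.16 (adjusted p = 8.78e-05), Tnfaip3 at 0.50 ± 0.13 (adjusted p = 0.00231) and Nfkbie at 0.54 ± 0.14 (adjusted p = 0.0022). Mice 5 and 8 averaged 0.09 and 0.07 over this list, within the saline range.

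Complement genes rose in 9 of 11 cases and fell in none, or in 1 without mice 5 and 8. Factor B (Cfb), the protease of the alternative pathway, was higher by 1.38 ± 0.20 (adjusted p = 3.68e-08), the receptor gene C3ar1 by 1.33 ± 0.27 (adjusted p = 5.19e-05) and the macrophage-made chains C1qa, C1qb and C1qc by 0.69, 0.89 and 0.67. Toll-like receptors and their partners rose in 7 of 12 cases and fell in none, with Tlr2, the receptor for bacterial lipoproteins, at 0.78 ± 0.15 (adjusted p = 2.19e-05) and Tlr13, a sensor of bacterial ribosomal RNA, at 0.83 ± 0.18 (adjusted p = 0.000114). For both receptors every bleomycin mouse was above every saline mouse. Acod1, the enzyme by which activated macrophages make itaconate, rose by 2.51 ± 0.44 (adjusted p = 3.29e-06), with 7.38, 8.45 and 10.06 in bleomycin mice, against 5.46, 5.84 and 6.75 in saline mice.

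All 21 measured interferon-stimulated genes rose (20 after quantile normalization was repeated), 13 of them over 2-fold, with a median change of 1.49, against -0.01 over all genes. Rsad2, an antiviral enzyme also called viperin, was 5.74-fold higher, with 9.87, 12.44 and 13.03 in bleomycin mice, against 8.78, 9.55 and 9.90 in saline mice, a difference of 2.52 ± 0.30 (adjusted p = 1.36e-10). Oas3, a sensor of double-stranded RNA that activates RNase L, had 8.82, 10.53 and 11.12 in bleomycin mice, against 7.19, 7.76 and 7.93 in saline mice, a difference of 2.52 ± 0.30 (adjusted p = 1.34e-10). The groups did not overlap for Oas3, and mice 5 and 8, at 8.82 and 8.83, lay between the saline mice and the other bleomycin mice. Mx1 (2.34 ± 0.28, adjusted p = 2.02e-10) and Mx2 (1.96 ± 0.21, adjusted p = 4.53e-12), dynamin-like GTPases that block viruses, rose, as did Oasl1 (2.25 ± 0.28, adjusted p = 3.35e-10). Irf7, the factor that amplifies type I interferon production, had 9.38, 12.04 and 12.40 in bleomycin mice, against 9.08, 9.33 and 9.59 in saline mice, a difference of 2.13 ± 0.24 (adjusted p = 1.12e-11). Ifit1, which binds RNA without a methylated cap, was higher by 1.80 ± 0.20 (adjusted p = 7.84e-12) with no overlap of the groups, and Ifit2 by 1.27 ± 0.14 (adjusted p = 3.12e-12). Slfn4, an interferon-induced gene of myeloid cells, was 5.0-fold higher, with 11.73, 12.37 and 13.35 in bleomycin mice, against 9.07, 10.19 and 10.87 in saline mice, and mice 5 and 8, at 11.89 and 11.78, were above every saline mouse. The mean over the list was 0.30 and 0.21 in mice 5 and 8 and 1.61 to 2.1 in the other 6, against -0.23 to 0.17 in saline mice, so that all 8 bleomycin mice exceeded the saline mice. Without mice 5 and 8 the median was 1.89 and 21 of 21 genes rose.

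The bases before the starts of Ifit1, Rsad2 and Oas3 are shown as examples of the interferon-stimulated response element, to which STAT and IRF proteins bind. The core searched was GAAA, any 2 bases and then GAAA, on either strand, and matches are in capitals.
Ifit1 (chr19:34640759-34640888, forward strand): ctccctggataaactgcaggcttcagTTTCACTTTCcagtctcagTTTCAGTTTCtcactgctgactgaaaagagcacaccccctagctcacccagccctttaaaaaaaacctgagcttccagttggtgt
Rsad2 (chr12:26456453-26456582, reverse strand): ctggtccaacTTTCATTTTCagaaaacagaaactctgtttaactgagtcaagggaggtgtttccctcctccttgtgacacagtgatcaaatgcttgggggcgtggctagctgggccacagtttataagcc
Oas3 (chr5:120777660-120777789, reverse strand): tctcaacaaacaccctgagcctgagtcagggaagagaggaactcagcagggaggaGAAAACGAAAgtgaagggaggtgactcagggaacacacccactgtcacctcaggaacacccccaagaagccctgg
The window of Ifit1 held 2 matches, which began 104 and 85 bases before the start, and those of Rsad2 and Oas3 held 1 each, at 120 and 75 bases. The core was found in the 250 bases before the start for 3.46% of the 27025 genes of the table and for 2.98% of the 12513 measured genes it holds. It was found for 18 of the 113 upward genes it holds (15.9%) and for none of the 22 downward genes. Of the interferon-stimulated genes 15 were in the table and 5 had a match, namely Bst2, Ifit1, Oas3, Rsad2 and Stat2. Of the interferon-gamma genes described next, 13 were in the table and 6 had a match. Among the other upward genes Cxcl10 and Saa3 had a match too, as did Chl1, Clca3a1, Mmp13, Slc26a4 and Tgm1.

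The genes that interferon-gamma induces more than type I interferon, GTPases of the Gbp and Irg families and genes that load peptides on MHC class I, rose in 17 of 18 cases, with a median of 0.43. Iigp1 was higher by 1.17 ± 0.19 (adjusted p = 1.27e-06), Gbp3 by 0.92 ± 0.12 (adjusted p = 9.49e-10), Irgm1 by 0.92 ± 0.13 (adjusted p = 1.06e-08) and Gbp2 by 0.59 ± 0.10 (adjusted p = 1.52e-06). The changes were thus mostly under 2-fold, and 1 of the 18 was over it. Genes of MHC class II presentation, which interferon-gamma also induces in many cells, differed little. Of 8 measured, 1 rose and 2 fell, with H2-Aa at -0.04 ± 0.07 (adjusted p = 0.725) and H2-Ab1 at -0.01 ± 0.08 (adjusted p = 0.933). The 2 that fell were H2-Oa and H2-Ob, which B cells express, at -0.46 and -0.57. H2-Oa lost the call without any 1 of 9 mice (highest adjusted p = 0.143, without saline mouse 7) and H2-Ob lost it without bleomycin mouse 2 (adjusted p = 0.0524).

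**Figure D2:**
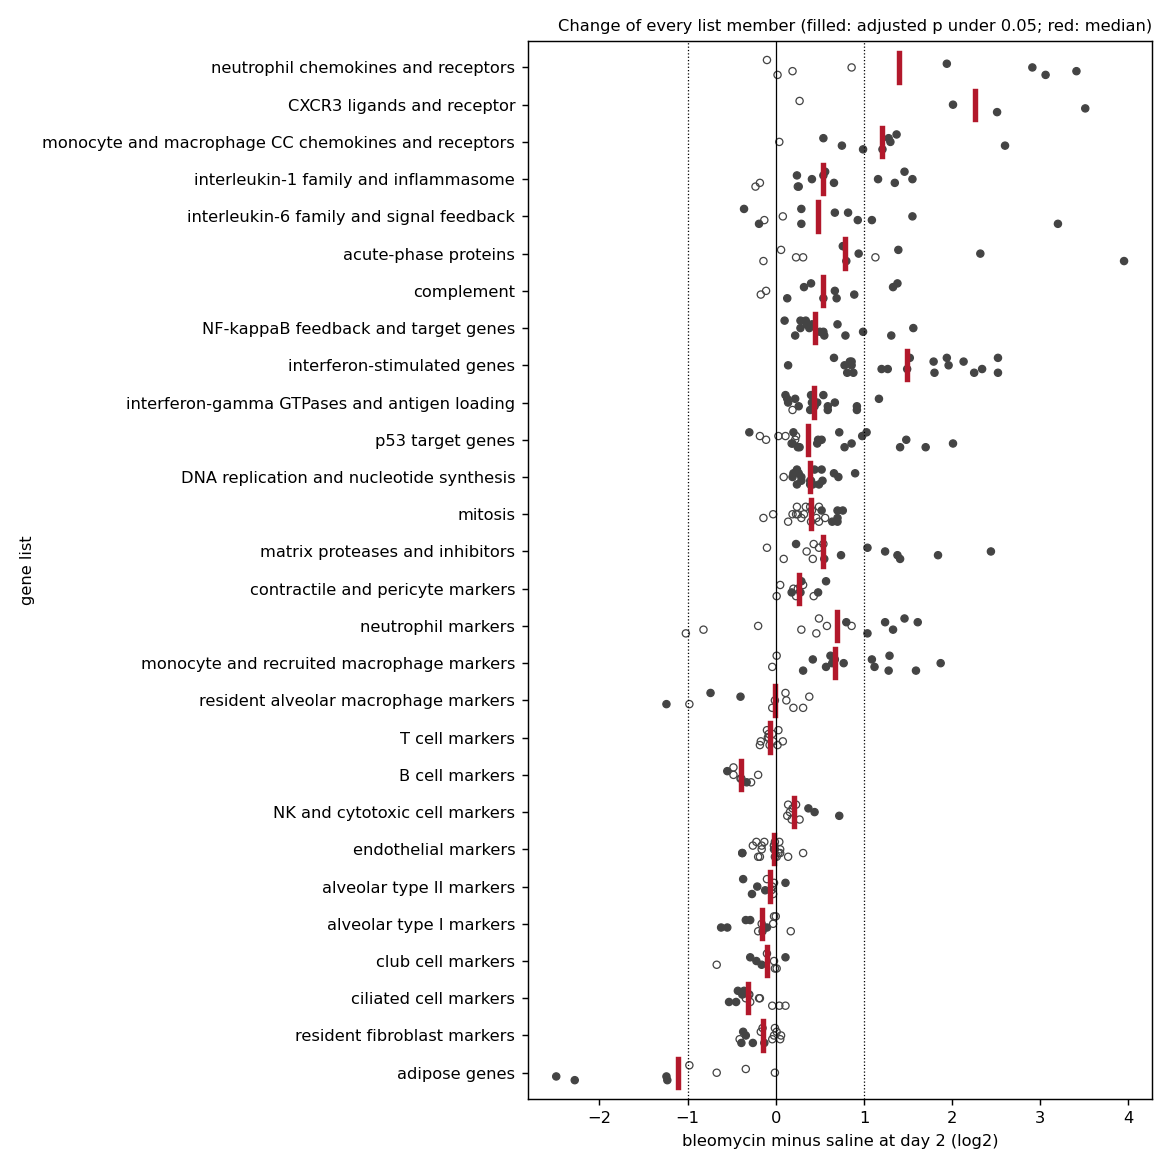
Change at day 2 (bleomycin minus saline, log2) of every measured member of 28 gene lists, filled where the adjusted p was under 0.05, with the list median in red and dotted lines at 2-fold. All 21 interferon-stimulated genes and all 16 NF-kappaB genes are filled and to the right of 0, whereas the 12 T cell markers are all open and near 0.

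Targets of p53 rose in 16 of 24 measured cases and fell in 1, with a median of 0.37. Cdkn1a, the cell cycle inhibitor p21, had 8.97, 11.42 and 11.91 in bleomycin mice, against 9.07, 9.60 and 10.06 in saline mice, a difference of 1.41 ± 0.24 (adjusted p = 1.8e-06). For Cdkn1a, 6 of the 8 bleomycin mice were above every saline mouse, mouse 5 at 8.97 was below every saline mouse and mouse 8 at 9.45 was among them. Eda2r, a death receptor of the TNF receptor family, was higher by 1.70 ± 0.23 (adjusted p = 3.84e-09), Ccng1, a cyclin that p53 induces, by 1.48 ± 0.18 (adjusted p = 3.82e-10) and Psrc1, a microtubule-binding protein, by 2.01 ± 0.31 (adjusted p = 1.9e-07). Ccng1 varied little among saline mice, with 8.79, 10.80 and 11.19 in bleomycin mice, against 8.81, 8.91 and 8.97 in saline mice. Mdm2, the ligase that degrades p53, rose by 0.47 ± 0.14 (adjusted p = 0.00582). Sesn1 was the member that fell, at -0.30 (adjusted p = 0.0278), and lost the call without any 1 of 7 mice (highest adjusted p = 0.088, without bleomycin mouse 7). Over the list, mice 5 and 8 differed from the saline mean by -0.07 and 0.02, the first below and the second inside the saline range of -0.03 to 0.06, and the median without them was 0.48 with 19 of 24 genes higher. Genes of DNA break repair and damage sensing moved less, with 5 of 23 higher and 1 lower (2 without mice 5 and 8). Of all genes, 14.2% rose and 13.1% fell. Chek1, the kinase that stops cells with stalled replication forks, rose by 0.89 ± 0.17 (adjusted p = 2.37e-05) and Brca1 by 0.54 ± 0.16 (adjusted p = 0.00609), whereas Atm and Atr, the kinases that sense damage, differed by -0.07 ± 0.06 and -0.15 ± 0.17 and did not pass (adjusted p = 0.444 and 0.55). The probeset of Atm with the highest mean gave -0.12 with an adjusted p of 0.024. Rad50, part of the complex that holds broken ends, fell by 0.22 (adjusted p = 0.000733), with all 8 bleomycin mice below the saline mice.

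Genes of DNA replication and nucleotide synthesis rose in 17 of 19 cases, with a median of 0.39 and none over 2-fold. Mcm5, a subunit of the replicative helicase, had 8.70, 9.23 and 9.44 in bleomycin mice, against 8.31, 8.43 and 8.61 in saline mice, a difference of 0.71 ± 0.13 (adjusted p = 7.59e-06), and Gins1 of the same helicase had a difference of 0.66 ± 0.11 (adjusted p = 2.39e-06), both with no overlap of the groups. Uhrf1, which copies DNA methylation after replication, rose by 0.90 ± 0.18 (adjusted p = 4.56e-05). Genes of mitosis, the later stage of the cycle, rose in 6 of 23 cases, against 14.2% of all genes, and fell in none, with a median of 0.40. Among them were the kinase gene Aurkb at 0.70 ± 0.19 (adjusted p = 0.00256) and the spindle gene Tpx2 at 0.70 ± 0.19 (adjusted p = 0.00347). Without mice 5 and 8 the count was 11 of 23. The mean of the list in mouse 5 was -0.16. Of the cyclins and inhibitors of G1, 6 of 15 rose and 1 fell, with Ccnd1 and Ccnd2, the cyclins that start the cycle, at 0.43 ± 0.09 (adjusted p = 4.3e-05) and 0.43 ± 0.09 (adjusted p = 3.93e-05), Myc at 0.63 ± 0.16 (adjusted p = 0.00188) and the inhibitor Cdkn1b at -0.26 ± 0.07 (adjusted p = 0.00364). The inhibitor Cdkn1a and the early cycle genes were thus both higher in the group, though not in every lung. In mice 5 and 8 Cdkn1a was not above every saline mouse. Mcm5 and Gins1 were, but they are among the 3 of 19 replication genes without overlap, so this followed from their choice. The mean over the replication list exceeded every saline mouse in 7 of 8 bleomycin mice, with a lowest value of 0.08, against a highest saline value of 0.1.

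Matrix proteases and their inhibitors rose in 9 of 16 cases, 6 of them over 2-fold, and fell in none. Timp1, an inhibitor of metalloproteinases, was higher by 2.44 ± 0.36 (adjusted p = 5.26e-08), with 9.14, 12.53 and 13.23 in bleomycin mice, against 9.17, 9.42 and 9.74 in saline mice. The aggrecanase gene Adamts4 rose by 1.84 ± 0.42 (adjusted p = 0.000348), the macrophage elastase gene Mmp12 by 1.41 ± 0.31 (adjusted p = 0.000234) and the collagenase gene Mmp13 by 1.38 ± 0.25 (adjusted p = 6.55e-06). Mmp13 had 5.69, 6.59 and 6.96 in bleomycin mice, against 4.39, 4.98 and 5.46 in saline mice, without overlap. Of the matricellular genes 5 of 12 rose and none fell. Vcan, the large proteoglycan versican of the provisional matrix, was higher by 2.01 ± 0.21 (adjusted p = 2.55e-12), with a lowest value of 8.37 and a median of 9.33 in bleomycin mice, against a median of 7.20 and a highest value of 7.65 in saline mice, also without overlap, and Tnc, tenascin C, by 1.66 ± 0.36 (adjusted p = 0.000133). Fn1, fibronectin, rose by 0.77 ± 0.17 (adjusted p = 0.000202). Of 13 collagens 5 rose and 2 fell, with Col3a1 at 0.59 ± 0.18 (adjusted p = 0.00788), Col1a1 at 0.37 ± 0.12 (adjusted p = 0.0156) and Col1a2 at 0.38 ± 0.12 (adjusted p = 0.0146), and the basement membrane chain Col4a4 at -0.81 ± 0.10 (adjusted p = 9.27e-11). All 8 bleomycin mice were below the saline mice for Col4a4, with 10.86, 11.52 and 12.14 in bleomycin mice, against 12.30, 12.35 and 12.51 in saline mice. Of the TGF-beta ligands, activators and targets 5 of 16 rose and none fell. The ligand genes differed by -0.15 ± 0.08 for Tgfb1, 0.09 ± 0.09 for Tgfb2 and -0.12 ± 0.08 for Tgfb3, none of which passed. Tgfb2 passed at 0.25 without mice 5 and 8 (adjusted p = 0.0276) and at -0.13 with an adjusted p of 0.0481 in the probeset with the highest mean. Tgfbi, a secreted protein that TGF-beta induces, rose by 0.66 ± 0.10 (adjusted p = 5.02e-08). Among 10 EGF receptor ligands and receptors 3 rose, against 14.2% of all genes. They were led by epiregulin (Ereg) at 2.09 ± 0.43 (adjusted p = 8.19e-05), with 6.81, 8.86 and 10.51 in bleomycin mice, against 6.24, 6.64 and 7.34 in saline mice, and Hbegf at 0.44 ± 0.11 (adjusted p = 0.00146). Igf1, a growth factor that macrophages and fibroblasts make, rose by 0.95 ± 0.20 (adjusted p = 9e-05), while Igfbp3, which binds it in serum, fell by 1.08 (adjusted p = 3.46e-05).

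Among the markers of leukocytes, those of monocytes rose in most cases. Of 15 markers of monocytes and recruited macrophages 13 rose, 7 of them without overlap, and none fell, with a median of 0.67. Fcgr1, the high-affinity IgG receptor, had 9.60, 11.07 and 11.91 in bleomycin mice, against 8.72, 9.03 and 9.31 in saline mice, a difference of 1.87 ± 0.23 (adjusted p = 1.39e-10). Ms4a4c rose by 1.29 ± 0.21 (adjusted p = 9.82e-07), the scavenger receptor gene Msr1 by 1.59 ± 0.27 (adjusted p = 1.78e-06) and Clec5a by 1.12 ± 0.20 (adjusted p = 4.2e-06). The mean over the list exceeded that of every saline mouse in all 8 bleomycin mice, with 0.43 and 0.44 in mice 5 and 8. Of 14 neutrophil markers 6 rose and none fell (2 fell without mice 5 and 8), and their values varied widely among mice. Cd177, a surface protein of neutrophils, was higher by 1.61 ± 0.36 (adjusted p = 0.000217), Clec4e by 1.33 ± 0.29 (adjusted p = 0.000209) and the collagenase gene Mmp8 by 1.24 ± 0.30 (adjusted p = 0.000641). The granule genes S100a8 and S100a9 differed by 0.46 ± 0.31 and 0.29 ± 0.27 and did not pass (adjusted p = 0.29 and 0.462). S100a8 had 11.23, 12.26 and 13.62 in bleomycin mice, against 11.13, 11.86 and 12.70 in saline mice. Of the genes of secondary granules, named after their values were seen, Ngp differed by -1.02 ± 0.53 (adjusted p = 0.15), Camp by -0.82 ± 0.38 (adjusted p = 0.102) and Ltf by -0.20 ± 0.56 (adjusted p = 0.839). Ngp and Camp were highest among bleomycin mice in mouse 8, at 10.32 and 10.24, and were the 2 that fell without mice 5 and 8, by 1.54 and 1.19. The mean of the neutrophil list ran between -0.19 and 1.68 in bleomycin mice, against -0.49 to 0.4 in saline mice, and 5 of 8 bleomycin mice were above every saline mouse. Its summed level on the linear scale, which is set mainly by the brightest probesets, was 28130 to 67040 in bleomycin mice and 20370 to 33540 in saline mice. How far the cells account for the chemokine and interleukin-1 values was not tested.

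Of 12 T cell markers none rose and none fell, with Cd3e at -0.03 ± 0.13 (adjusted p = 0.899). Their mean was -0.68 to 0.25 in bleomycin mice, against 0.86 in saline mouse 7. Of 8 B cell markers 2 fell, against 13.1% of all genes. They were Pax5, by 0.33, and Fcrla, by 0.55, the second only with both groups nearly complete (the call was lost without any 1 of 8 mice, with an adjusted p of up to 0.166 without bleomycin mouse 2). Of 10 markers of NK and cytotoxic cells 3 rose, against 14.2% of all genes, led by granzyme B (Gzmb) at 0.72 ± 0.16 (adjusted p = 0.000181). Without mice 5 and 8 the counts were 6 of 8 and 2 of 10. Of 11 markers of resident alveolar macrophages 3 fell and none rose (2 rose without mice 5 and 8). The largest of the 3 was in Cidec, a lipid droplet protein that is also among the adipose genes, at -1.24 ± 0.38 (adjusted p = 0.00852), and saline mouse 7 was its highest mouse. Krt79, at -0.74 ± 0.28 (adjusted p = 0.0355), lost the call without any 1 of 8 mice (highest adjusted p = 0.0863, without bleomycin mouse 4). Pparg, the factor that these cells need, fell by 0.40 (adjusted p = 0.000139) with all 8 bleomycin mice below the saline mice, and Marco differed by 0.20 ± 0.29 (adjusted p = 0.663).

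**Figure D3:**
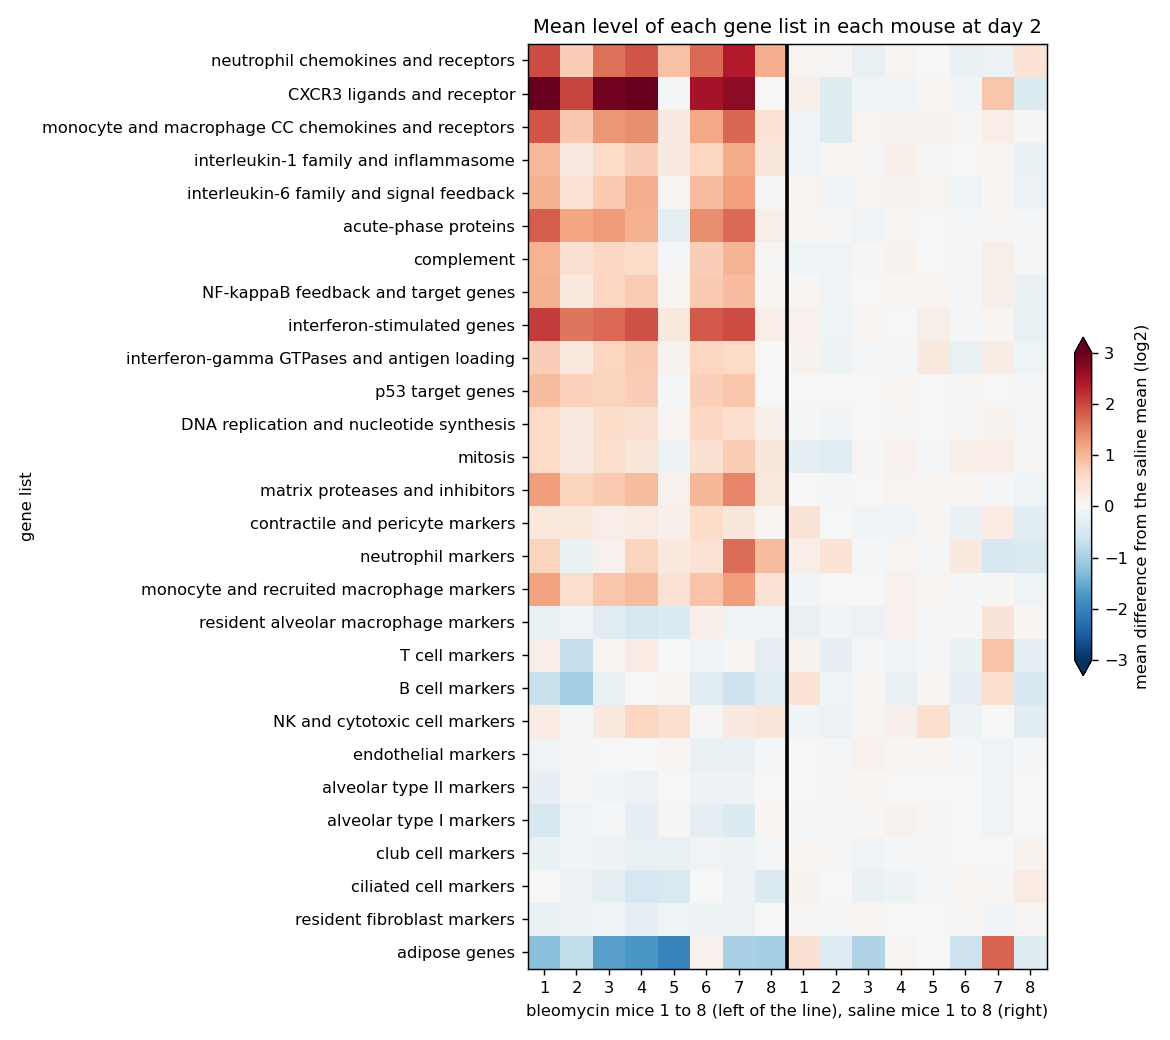
Mean difference from the saline mean (log2, colour scale ended at 3 in both directions) of 28 gene lists in the 8 bleomycin mice, left of the line, and the 8 saline mice at day 2. The columns of bleomycin mice 5 and 8 are near 0 for interferon-gamma genes, interleukin-6 family and p53 targets and above 0 for neutrophil chemokines and monocyte markers, and saline mouse 7 is highest of the saline mice for T cell markers.

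Markers of the resident lung cells changed by less than 2-fold. Their counts stand against 13.1% of all genes that fell and 14.2% that rose. Among 22 endothelial markers 1 fell (3 without mice 5 and 8), Emcn by 0.38 (adjusted p = 0.000139), and none rose, with Pecam1 at 0.01 ± 0.07 and Cdh5 at 0.05 ± 0.11. Of 12 markers of alveolar type I cells, the flat cells of gas exchange, 6 fell and none rose, with a median of -0.16. Rtkn2 fell by 0.55 (adjusted p = 4.75e-06), the homeobox gene Hopx by 0.29 (adjusted p = 0.000306) and Ager, the receptor for advanced glycation end products, by 0.15 (adjusted p = 0.000136). Mice 5 and 8 averaged 0.03 and 0.06 over this list, within the saline range. Of 10 type II markers 4 fell and 1 rose, led by the lipid transporter gene Abca3 at -0.37 ± 0.08 (adjusted p = 0.000174). After quantile normalization was repeated 6 fell and none rose, and without mice 5 and 8 6 fell and 1 rose. Sftpc differed by -0.04 ± 0.02 (adjusted p = 0.118), or by -0.07 without mice 5 and 8 (adjusted p = 0.00849). Its level was near the highest value of the series, 14.69, so its difference may be understated. Of 9 club cell markers 3 fell and 1 rose (4 fell and none rose after quantile normalization was repeated). The secretoglobin gene Scgb3a2 was below the saline mice in all 8 bleomycin mice (-0.22 ± 0.05, adjusted p = 0.000401). Of 14 ciliated cell markers 5 fell and none rose, with the dynein gene Dnah5 at -0.53 ± 0.15 (adjusted p = 0.00556). The mean of the ciliated list was below every saline mouse in 4 of 8 bleomycin mice, 5 and 8 among them at -0.46 and -0.42, and without these 3 genes fell and 1 rose. Of 14 fibroblast markers 5 fell (3 after array medians were subtracted) and none rose, all under 2-fold, and the mean of this list was below every saline mouse in 7 of 8 bleomycin mice. Of 12 contractile and pericyte genes 5 rose and none fell, with Cspg4, a pericyte proteoglycan, at 0.29 ± 0.09 (adjusted p = 0.00551) and Acta2 at 0.43 ± 0.29 (adjusted p = 0.29, or 0.31 with an adjusted p of 0.0224 from the probeset with the highest mean).

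Genes of stressed or transitional epithelium and of mucus also divided the bleomycin mice. Of 14 transitional genes 4 rose and 2 fell, and without mice 5 and 8 the counts were 8 and 2. Sprr1a, a protein of the cornified envelope, had 6.91, 10.15 and 11.24 in bleomycin mice, against 7.39, 7.96 and 9.11 in saline mice, a difference of 1.57 ± 0.36 (adjusted p = 0.000363). The 6 other bleomycin mice were above every saline mouse for Sprr1a and mice 5 and 8, at 6.91 and 6.93, were below every saline mouse. The difference was 2.45 without those mice, and the call was lost when the arrays of day 2 were fitted alone (adjusted p = 0.0539). Anxa1, an annexin with anti-inflammatory action, was higher by 0.63 ± 0.17 (adjusted p = 0.00314) and divided in the same way. Of 10 mucin and goblet cell genes 2 rose and none fell (1 fell without mice 5 and 8), namely Muc4, a membrane mucin, at 0.64 ± 0.20 (adjusted p = 0.0114) and the anion exchanger gene Slc26a4 at 1.15 ± 0.34 (adjusted p = 0.00694). Muc4 lost the call when the arrays of day 2 were fitted alone (adjusted p = 0.0534) and was at 0.98 without mice 5 and 8. The mean of this list was -1.33 and -1.08 in mice 5 and 8, below every saline mouse, and 0.17 to 0.71 in the other 6.

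The downward genes were fewer and were lower in all or most bleomycin mice, mice 5 and 8 among them. Their call included mice 5 and 8, which favours genes that were lower in these mice too. Asgr1, a subunit of the asialoglycoprotein receptor, had 7.32, 7.73 and 9.12 in bleomycin mice, against 9.30, 9.65 and 10.01 in saline mice, a difference of -1.65 ± 0.27 (adjusted p = 6.46e-07). Bex2, a small adaptor protein, had 7.95, 8.82 and 10.10 in bleomycin mice, against 10.47, 10.60 and 10.76 in saline mice, a difference of -1.66 ± 0.24 (adjusted p = 5.33e-08). Atp6v1b1, a subunit of the proton pump of acid-secreting epithelium, had 6.28, 6.53 and 7.41 in bleomycin mice, against 7.82, 8.33 and 8.81 in saline mice, a difference of -1.58 ± 0.24 (adjusted p = 1.26e-07). For these 3 genes the groups did not overlap, and mice 5 and 8 were the nearest to the saline mice in each. Chad, a matrix protein of cartilage, fell by 1.34 (adjusted p = 3.92e-06), Acoxl, a relative of acyl-CoA oxidases, by 1.16 (adjusted p = 1.22e-07), Mfsd4a, a membrane transporter, by 1.18 (adjusted p = 2.32e-13), Dcdc2a by 1.32 (adjusted p = 7.49e-08) and Lypd2 by 1.15 (adjusted p = 1.67e-05), all without overlap. The activin-type receptor gene Acvr1c fell by 1.55 (adjusted p = 0.00316). The unnamed transcripts Gm4876 and 9530026P05Rik fell by 1.24 (adjusted p = 3.78e-08) and 1.33 (adjusted p = 3.88e-07), also without overlap. Sult1d1, a sulfotransferase, fell by 1.26 (adjusted p = 0.0154) and Cdh26, a cadherin, by 1.37 (adjusted p = 0.0388), which lost the call without any 1 of 9 mice (highest adjusted p = 0.085, without saline mouse 7).

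The largest decreases on the log2 scale were in 2 genes of adipose tissue and gluconeogenesis, Pck1 at -2.49 ± 0.79 (adjusted p = 0.012) and Adipoq, which encodes adiponectin, at -2.28 ± 0.78 (adjusted p = 0.0191). Their spread was wide. Adipoq had 4.78, 8.40 and 10.73 in bleomycin mice, against 8.92, 10.14 and 12.07 in saline mice, and Pck1 had 4.46, 5.47 and 8.38 in bleomycin mice, against 6.62, 8.00 and 11.41 in saline mice. Of 8 measured adipose genes 4 fell and none rose, all 4 over 2-fold (2 fell without mice 5 and 8), with a median of -1.11. The mean over the list ran between -2.01 and 0.12 in bleomycin mice and between -0.91 and 1.75 in saline mice, with saline mouse 7 the highest and bleomycin mouse 5 the lowest. Without bleomycin mouse 5 Adipoq differed by -1.83 (adjusted p = 0.0674), and without saline mouse 7 Pck1 differed by -2.03 (adjusted p = 0.05), so that neither passed. The amount of fat taken with the lung was not recorded in the labels, and its part in these values was not tested.

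Other large changes in which the mice of the bleomycin group did not all lie on 1 side of the saline mean were named after their values were seen. Tmem45b, the third gene over 4-fold lower, differed by -2.04 ± 0.78 (adjusted p = 0.0417), with 4.48, 5.92 and 8.89 in bleomycin mice, against 6.48, 7.96 and 10.39 in saline mice, and lost the call without any 1 of 10 mice and without mice 5 and 8 (adjusted p = 0.114). Car3, a carbonic anhydrase of muscle and fat, differed by -1.76 ± 0.66 (adjusted p = 0.0363), and Cyp2e1, a cytochrome P450, by -1.26 ± 0.46 (adjusted p = 0.0315), and neither passed without mice 5 and 8 (adjusted p = 0.128 and 0.0575). Calml3, a relative of calmodulin, fell by 1.42 (adjusted p = 0.00629). Bleomycin mouse 6 was the highest of its group for these 4 genes, and saline mouse 7 was the highest of its group for Tmem45b, Car3 and Cyp2e1. Upward, Chl1, a cell adhesion molecule, was higher by 2.43 ± 0.53 (adjusted p = 0.000154), with 5.11, 8.25 and 9.98 in bleomycin mice, against 5.08, 5.42 and 6.42 in saline mice, and mice 5 and 8, at 5.24 and 5.11, were within the saline range.

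Stress responses moved in part. Of 10 metallothionein and metal transport genes 7 rose and none fell, with Mt1 and Mt2, which bind zinc and copper, at 1.33 ± 0.31 (adjusted p = 0.000444) and 1.27 ± 0.23 (adjusted p = 9.27e-06), and the zinc importer gene Slc39a14, which interleukin-6 induces, at 1.09 ± 0.17 (adjusted p = 3.49e-07). Of 15 genes of the unfolded protein response 8 rose and 1 fell. Sdf2l1 (1.09 ± 0.14, adjusted p = 1.53e-09), Creld2 (0.55 ± 0.08, adjusted p = 2.49e-08) and the chaperone gene Hspa5 (0.37 ± 0.05, adjusted p = 1.19e-09), all of the endoplasmic reticulum, separated the groups without overlap, mice 5 and 8 included. Of 13 NRF2 and antioxidant genes 5 rose (8 without mice 5 and 8) and 3 fell, with heme oxygenase (Hmox1) at 0.54 ± 0.11 (adjusted p = 8.34e-05) and catalase (Cat) at -0.37 ± 0.07 (adjusted p = 1.35e-05). Nqo1, a standard NRF2 target, differed by -0.00 ± 0.11 (adjusted p = 0.994). Fosl1, a subunit of AP-1, rose by 1.90 ± 0.33 (adjusted p = 2.44e-06). Of 15 clock genes 4 rose and 5 fell (2 rose without mice 5 and 8). The repressor gene Cry1 had 10.24, 10.56 and 10.80 in bleomycin mice, against 9.25, 9.44 and 10.03 in saline mice, a difference of 0.99 ± 0.09 (adjusted p = 3.43e-14), with no overlap. Its activator Arntl differed by -0.70 ± 0.17 (adjusted p = 0.000669) and Nr1d1, which represses Arntl, by -0.68 ± 0.14 (adjusted p = 0.000134). The clock time at which each mouse was killed was not used here, and its part in these values was not tested.

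**Figure D4:**
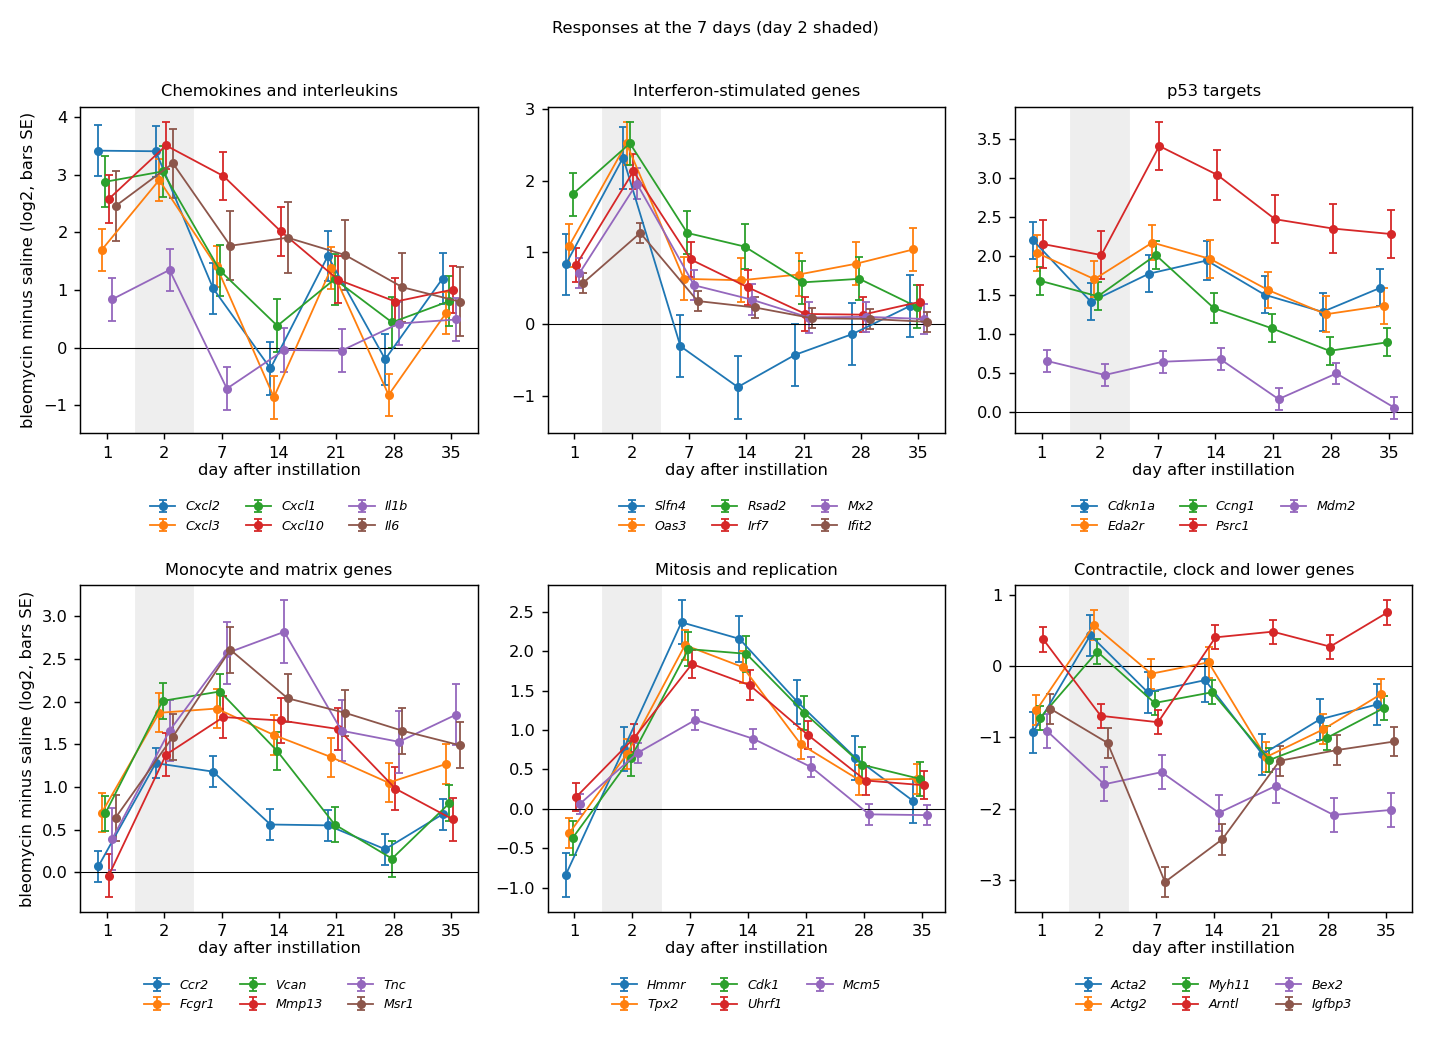
Bleomycin minus saline (log2, bars SE) of 34 genes at the 7 days, which are drawn at equal spacing, with day 2 shaded. The interferon-stimulated genes are highest at day 2, the mitotic genes are below 0 at day 1 for Hmmr, Tpx2 and Cdk1 and highest at day 7, and Acta2, Actg2 and Myh11 are above 0 only at day 2 and, for Actg2, slightly so at day 14.

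The responses were then compared with those of the neighbouring days. At day 1, 59 genes were differentially expressed upward (0.376%), and 51 of them were among the 149 of day 2. At day 7, 448 were (2.85%), and 99 of them were among the 149. Of the 149 genes 39 were over 2-fold at no other day. The test of the difference itself gave 40 genes whose day 2 response was over 2-fold above that of day 1 (0.255%) and 3 for which it was below (0.0191%). Without mice 5 and 8 these counts were 114 and 4. The first count also moved with single mice, to 23 without bleomycin mouse 1, 6 or 7 and to 66 without bleomycin mouse 5, and the second became 5 without saline mouse 8. Against day 7, 61 genes were above (0.388%) and 197 below (1.25%). Against the mean of the other 6 days, 57 were above (0.363%) and 41 below (0.261%), and 106 and 33 without mice 5 and 8.

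Interferon-stimulated genes differed from both neighbouring days. Their median response was 0.59 at day 1, 1.49 at day 2 and 0.41 at day 7. At any fold, 12 of the 21 were above their day 1 response, against 2.41% of all genes, 19 were above their day 7 response, against 7.12%, and all 21 were above the mean of the other days, against 5.48%. Oas3 exceeded its day 1 response by 1.43 ± 0.43 (adjusted p = 0.0369) and its day 7 response by 1.89 ± 0.43 (adjusted p = 0.000619). Slfn4 exceeded its day 7 response by 2.63 ± 0.60 (adjusted p = 0.000717), and Irf7 and Mx2 exceeded their day 1 responses by 1.31 ± 0.34 (adjusted p = 0.0147) and 1.24 ± 0.30 (adjusted p = 0.00962). Genes of the interferon-gamma list were above the mean of the other days in 15 of 18 cases, above day 1 in 1 and above day 7 in 10. The shares of all genes were 5.48%, 2.41% and 7.12%.

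The neutrophil chemokines were raised at both day 1 and day 2. Cxcl2 had a response of 3.42 at day 1, 3.41 at day 2 and 1.03 at day 7, and none of the 8 genes of the list differed between days 2 and 1 at an adjusted p under 0.05. Against day 7, 5 of the 8 were above (7.12% of all genes were), with Cxcl2 by 2.38 ± 0.63 (adjusted p = 0.00346) and Cxcr2 by 1.99 ± 0.58 (adjusted p = 0.00871). Cxcr2 and Ppbp were among these 5 although neither had risen at day 2. At day 7, 4 genes of the list had risen and 2 had fallen, against 25.7% and 21.9% of all genes. Il1b exceeded its day 7 response by 2.06 ± 0.52 (adjusted p = 0.00233). Monocyte markers, in contrast, had medians of 0.32 at day 1, 0.67 at day 2 and 1.14 at day 7. Of the 15, 4 were above day 1, against 2.41% of all genes, and 7 were below day 7, against 11.6%. Another 2 were above day 7, against 7.12% of all genes, among them Ms4a4c with responses of 1.29 at day 2 and -0.06 at day 7. Ccr2 exceeded its day 1 response by 1.21 ± 0.25 (adjusted p = 0.0022), and Mmp13 by 1.41 ± 0.35 (adjusted p = 0.0107). Apod, a lipocalin, exceeded it by 1.51 ± 0.42 (adjusted p = 0.0259).

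Genes of mitosis changed sides between days 1 and 2. Their median response was -0.41 at day 1, 0.40 at day 2 and 1.88 at day 7. At day 1, 9 of 23 had fallen, against 16.7% of all genes. At day 2, 6 had risen, against 14.2% of all genes, and at day 7 all 23 had, against 25.7%. The day 2 response was above that of day 1 in 10 genes, against 2.41% of all genes. It was below that of day 7 in all 23, against 11.6%. Hmmr, a hyaluronan receptor of the spindle, exceeded its day 1 response by 1.60 ± 0.40 (adjusted p = 0.0121), although its rise at day 2 alone lost the call without any 1 of 6 mice, with an adjusted p of up to 0.0919 without bleomycin mouse 7. Contractile genes also differed, with medians of -0.37, 0.26 and -0.10 at days 1, 2 and 7. Of the 12 genes 8 were above day 1, against 2.41% of all genes. Acta2, smooth muscle actin, exceeded its day 1 response by 1.36 ± 0.41 (adjusted p = 0.0385). The urea cycle gene Cps1 exceeded its day 1 response by 1.93 ± 0.30 (adjusted p = 3.94e-05). The 3 genes over 2-fold below their day 1 response were Zbtb16, a target of glucocorticoids, with a difference of -1.54 ± 0.47 (adjusted p = 0.042), Ccnjl with -1.15 ± 0.30 (adjusted p = 0.0142) and the clock gene Arntl with -1.07 ± 0.24 (adjusted p = 0.00473).

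Targets of p53 had medians of 0.48 at day 1, 0.37 at day 2 and 0.45 at day 7. Of the 24, 1 was below its day 1 response, against 1.86% of all genes. Cdkn1a had responses of 2.20, 1.41 and 1.77 at days 1, 2 and 7, and its day 2 response differed from that of day 1 by -0.78 ± 0.34 (adjusted p = 0.168). Among the genes below their day 7 response, the difference (day 2 minus day 7) was -3.76 ± 0.54 (adjusted p = 1.83e-07) for Chodl, a membrane lectin, -2.50 ± 0.39 (adjusted p = 1.35e-06) for the thrombospondin gene Thbs4, -2.75 ± 0.51 (adjusted p = 2.85e-05) for Sprr1a and -2.69 ± 0.46 (adjusted p = 9.26e-06) for the metalloproteinase gene Mmp10. At day 2 Chodl differed by 0.30 ± 0.38 and Thbs4 by -0.09 ± 0.28, neither of which passed. Igfbp3 had responses of -1.08 at day 2 and -3.03 at day 7, a difference of 1.95 ± 0.30 (adjusted p = 9.62e-07). Below the mean of the other days were 5 of the 11 resident alveolar macrophage markers and 5 of the 14 genes of transitional epithelium, against 7.69% of all genes.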

How the data were processed

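Total RNA of whole lung was measured on Affymetrix whole-genome mouse arrays, 1 mouse per array. The log2 values were deposited by the authors after robust multiarray averaging (RMA), which corrects background, quantile-normalizes and summarizes probes, and no further normalization was applied. They ran from 2.746 to 14.69 over all arrays of the series, with array medians of 8.614 to 8.731, and the number of arrays limits the precision. Platform annotation gave 1 gene to 27871 of 32688 probesets, several to 314 and none to 4503. For each of 15707 genes the probeset of highest variance was kept, since 7093 genes had more than 1.

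A mean for each of the 14 groups of treatment and day was fitted in limma 3.58.1 (R 4.3.3), with empirical Bayes moderation and Benjamini-Hochberg adjustment, and was tested on simulated data. P-values rest on a spread between mice that was pooled over the 14 groups for each gene. They therefore only partly reflect the spread of a divided group, such as the day 2 bleomycin mice for Cxcl10. With the arrays of day 2 fitted alone, 147 genes were over 2-fold higher and 29 lower. At any fold 1907 rose and 1927 fell in that fit, and 30 of the 377 named genes lost their call. Genes were named by rule, not all of them in the text: the 15 largest changes in each direction with every bleomycin mouse on 1 side of the saline mean, members of 61 gene lists that passed or define the list, and the 8 largest differences between days. A further 8 genes were named after their values were seen, 2 of which (Calml3 and Chl1) the rule also held for a difference between days. The members and lists were chosen with earlier results of these data known. Alternatives covered the probeset, filter, normalization, variance model, weights, block and single mice. The motif search used the promoter table of RefSeq.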

Additional observations from a re-analysis of the deposited data

Results flagged for a closer look

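Single mice stood far from the rest of their group in 30 of 380 groups of 8 values of the genes named above. The gap to the next mouse, as a share of the range of the group, was then over Dixon's 95% critical value for 8 samples. For unrelated values chance gives about 1 in 20. That rate is no yardstick here, since all genes come from the same mice and some were named after their values were seen. Of the 30, 13 were saline mouse 7 as the highest of its group, at log2 levels of 7.50 for Apod, 10.72 for C1qa, 9.97 for Ccl22, 10.16 for Cd3e, 6.42 for Chl1, 5.68 for Chodl, 10.90 for Cidec, 12.28 for Cxcl13, 8.26 for Cxcl9, 12.15 for Cyp2e1, 10.61 for Marco, 7.57 for Osm and 7.46 for Thbs4. In the bleomycin group they were mouse 6 as the highest for Calml3 (8.90), mouse 8 as the highest for Camp (10.24), mouse 6 as the highest for Cdh26 (7.73), mouse 1 as the highest for Chek1 (7.69), mouse 5 as the lowest for Igf1 (10.22), mouse 8 as the highest for Ngp (10.32), mouse 6 as the highest for Thbs4 (7.29), mouse 6 as the highest for Tmem45b (8.89) and mouse 1 as the highest for Tnfaip3 (7.20). In the saline group the others were mouse 4 as the lowest for 9530026P05Rik (8.59), mouse 8 as the highest for Cxcl2 (8.06), mouse 8 as the highest for Cxcl3 (6.24), mouse 4 as the highest for Fn1 (9.61), mouse 1 as the lowest for Il1rn (5.40), mouse 8 as the lowest for Oas3 (7.19), mouse 4 as the highest for Slc39a14 (6.57) and mouse 2 as the highest for Sprr1a (9.11). Of 122 groups of list means 6 stood out in the same way. Saline mouse 7 was the highest for CXCR3 ligands and receptor (0.84), T cell markers (0.86), the TNF superfamily ligands and receptors (0.40), dendritic cell markers (0.46) and mast cell and basophil markers (0.67), and saline mouse 2 was the highest for cholesterol synthesis (0.37).

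Responses that differed over 2-fold between days by the test of the difference itself (limma, adjusted p under 0.05) are given as day 2 minus the other day on the log2 scale. Against day 1 the day 2 response was higher for Cps1 (1.93), Hmmr (1.60), Apod (1.51), Oas3 (1.43), Mmp13 (1.41), Acta2 (1.36), Cxcl11 (1.34), Irf7 (1.31), Vcan (1.31), Mx2 (1.24), Ccr2 (1.21), Actg2 (1.19), Fcgr1 (1.18), Ms4a4c (1.04), Cdk1 (1.01) and Tpx2 (1.01). It was lower for Zbtb16 (-1.54), Ccnjl (-1.15) and Arntl (-1.07). Against day 7 it was higher for Slfn4 (2.63), Cxcl2 (2.38), Il1b (2.06), Cxcr2 (1.99), Igfbp3 (1.95), Oas3 (1.89), Cxcl1 (1.72), Acod1 (1.65), Cxcl3 (1.50), Apod (1.49), Mx2 (1.41), Ppbp (1.40), S100a8 (1.37), Ms4a4c (1.35), Gzmb (1.33), Cxcl11 (1.32), Oasl1 (1.25), Rsad2 (1.25), Irf7 (1.23), Gbp3 (1.17) and S100a9 (1.17). It was lower for Chodl (-3.76), Sprr1a (-2.75), Mmp10 (-2.69), Thbs4 (-2.50), Chl1 (-2.41), Ereg (-1.72), Mmp12 (-1.71), Zbtb16 (-1.70), Calml3 (-1.65), Hmmr (-1.61), Psrc1 (-1.40), Cdk1 (-1.39), Tpx2 (-1.38), C3ar1 (-1.37), Ccl8 (-1.30), Aurkb (-1.29), C1qa (-1.27), C1qb (-1.24), C1qc (-1.17), Clec5a (-1.09) and Msr1 (-1.02).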

How the results depend on the processing

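Of the 377 genes that the naming rule selected or that were added to it, 190 of which are described here, 1 reversed under any alternative, Tgfb2, which was -0.13 (adjusted p = 0.0481) with the probeset of highest mean and 0.09 (adjusted p = 0.549) with the main one, and the cause was not tested. Between 335 and 377 kept their direction and side of the threshold under each alternative that covered all 377, fewest without bleomycin mouse 1. Leaving out bleomycin mice 5 and 8, chosen after seeing the data, gave 242 genes higher, 51 lower, 114 above the day 1 response and 106 above the mean of the other days. Array weights gave 41 lower and 67 above day 1. Fitting every single-gene probeset gave 3877 higher and 3763 lower at any fold, of 27871 probesets. The mean of the probesets gave 23 above day 1 and 1 below. Without the 30% dimmest genes, 120 were below the day 7 response and 23 below the mean of the other days, of 10995 tested. Leaving out 1 mouse in turn gave 23 to 66 above day 1, the lowest without bleomycin mouse 1, 6 or 7, and 2 to 5 below it, with 125 to 191 higher and 20 to 38 lower at day 2. The same-numbered mice of the groups correlated at -0.175 to 0.307, with 3 of 8 pairs over 0.1 and 1 saline mouse correlating best with its own number, so the numbers were not taken as pairs. With the replicate block 150 genes were higher and 28 lower, 149 and 27 of them shared. At any fold the block gave 2254 and 2122, with 40 above and 3 below day 1, 60 and 196 for day 7, and 60 and 40 for the other days.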
